A study of Mus musculus with 8 samples.

Results

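Integrin subunits that bind the extracellular matrix were followed in brain endothelial cells (ECs) of mouse pups that expressed an active form of MAP2K1. The 10 members were *Itgav*, *Itgb3*, *Itgb5*, *Itgb8*, *Itgb1*, *Itga1*, *Itga2*, *Itga3*, *Itga5* and *Itga6*, taken by gene symbol from the 49315 genes of the count files. All 10 were found and all 10 passed the filter on low counts. An integrin is a receptor of 1 alpha and 1 beta subunit that spans the membrane, holds a matrix protein outside the cell and couples to actin inside it. The beta 1 subunit pairs with many alpha subunits and serves as the receptor core for laminin, collagen and fibronectin in the vascular basement membrane. Among the members, the alpha V subunit pairs with beta 1, beta 3, beta 5 or beta 8. These receptors read a short Arg-Gly-Asp (RGD) motif in fibronectin, vitronectin and other glycoproteins.

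Mutant pups carried 1 *R26 GT-Map2k1-GFP* allele and the *Tg-Cdh5CreER* transgene, so that tamoxifen given on postnatal day 1 removed a stop cassette and a CAG promoter drove a MAP2K1 (K57N) cDNA with GFP in Cre-active ECs. Wild-type pups came from the same litters and received the same tamoxifen, and both lines were kept on C57BL/6J. Brains were collected on day 9, CD31-binding beads captured the ECs, and each of 4 mutant and 4 wild-type pups gave 1 library of poly(A) RNA. Cre acted in only part of the captured ECs, each mutant library thus mixed recombined and unrecombined cells, and no group expressed wild-type MAP2K1 from the same locus. The authors deposited whole-number counts per gene, with 24833373 to 34196955 counts in the mutant and 28146348 to 32208421 in the wild-type libraries. *Map2k1*, the targeted gene, had 12692 to 18734 normalized counts in mutant and 1506 to 1762 in wild-type libraries, and all 8 libraries fell with their labels. Of 12 EC markers, *Cdh5*, which also names the Cre driver, was the one that passed both limits below (log2 fold change 1.11). By the limit on adjusted p alone, 3 EC markers were higher (*Cdh5*, *Emcn* and *Pecam1*, edgeR). By the same limit 4 were lower (*Kdr*, *Tek*, *Cldn5* and *Eng*, with log2 fold changes of -0.59 to -0.42, edgeR). *Pecam1*, which encodes the CD31 used for capture, had a log2 fold change of 0.53 (adjusted p = 0.00196, edgeR), and *Emcn* one of 0.82. Over all genes tested, 21.5% were higher and 22.9% lower by this limit. The summed EC marker counts were 406813 to 487911 in mutant and 388871 to 473463 in wild-type libraries. Oligodendrocyte lineage markers were lower in every mutant library, with summed counts of 767 to 1648 against 2613 to 7630, and all 6 of them passed both limits. In these bulk samples, fewer cells of a type and less RNA per cell cannot be told apart.

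The beta subunits differ in their cytoplasmic ends, and many of these ends carry NPxY motifs that the adaptors talin and kindlin are known to bind. The last 141 coding bases of each, without the stop codon, are shown to set the members apart, with codons for an NPxY motif in capitals (GENCODE vM21 transcripts on GRCm38, written 5′ to 3′ on the coding strand).
Itgb1: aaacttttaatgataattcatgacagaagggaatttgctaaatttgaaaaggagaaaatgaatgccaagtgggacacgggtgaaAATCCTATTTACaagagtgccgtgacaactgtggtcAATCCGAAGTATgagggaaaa
Itgb3: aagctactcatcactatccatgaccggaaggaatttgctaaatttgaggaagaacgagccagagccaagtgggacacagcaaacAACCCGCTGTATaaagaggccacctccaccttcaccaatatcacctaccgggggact
Itgb5: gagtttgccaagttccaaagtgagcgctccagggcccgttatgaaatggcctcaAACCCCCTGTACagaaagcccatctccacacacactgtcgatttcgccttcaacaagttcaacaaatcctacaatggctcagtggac
Itgb8: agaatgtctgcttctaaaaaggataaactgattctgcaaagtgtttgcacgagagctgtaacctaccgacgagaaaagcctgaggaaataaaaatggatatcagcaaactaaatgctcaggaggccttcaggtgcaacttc
These stretches lie on chromosome 8 from 128726109 to 128732085 for *Itgb1*, on chromosome 11 from 104665555 to 104667142 for *Itgb3*, on chromosome 16 from 33947834 to 33948749 for *Itgb5* and on chromosome 12 from 119163120 to 119163357 for *Itgb8*, each spliced from 2 exons. The *Itgb1* stretch holds 2 NPxY codon runs, those of *Itgb3* and *Itgb5* hold 1 each, and that of *Itgb8* holds 0. Variants of the motif with another residue in place of P were not searched or marked. The runs are therefore not a count of the adaptor binding sites of each subunit. The *Itgb1* and *Itgb3* runs nearest to the membrane both begin 57 bases before the end of the coding sequence.

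The test was edgeR's quasi-likelihood test of mutant against wild type over all 16887 genes that passed the filter, with Benjamini-Hochberg adjusted p. Values named normalized counts are counts scaled to the mean library size after TMM normalization. Of the 10 subunits, 7 were higher and 2 lower in mutant ECs at an adjusted p under 0.05, while 21.5% of all genes tested were higher, 22.9% lower and 44.4% changed in either direction by the same limit. The stricter limits of the study also ask for more than 1 on the log2 scale in either direction. The study set them on a DESeq2 test and focused on genes of higher mean read count. Set here on the edgeR fit, they called *Itgb3*, *Itga2*, *Itga3* and *Itgav* higher and *Itgb8* lower. The same limits called 5.9% of all genes tested higher and 8.05% lower, or 14% in either direction. The median log2 fold change was 0.79 over the 10 subunits and -0.02 over all genes tested. Mutant libraries lay wholly above wild-type libraries for 7 subunits and wholly below for 1, which was the case for 20.6% and 21.9% of all genes, or 42.5% in either direction. The members were picked with earlier results of these data known, so these counts describe the family and are not a test of it.

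**Figure D1:**
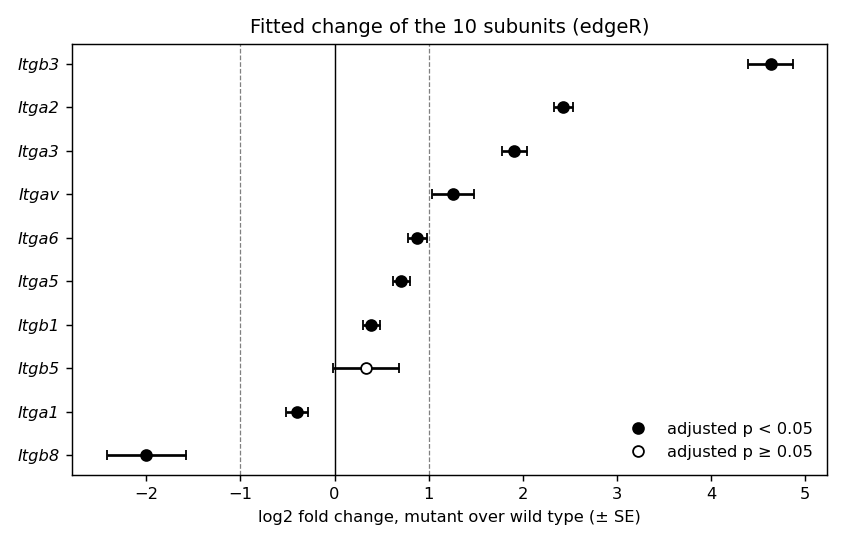
Fitted log2 fold change of each of the 10 subunits, mutant over wild type (x axis), with bars of 1 standard error from edgeR (4 mutant against 4 wild-type libraries). Filled points have an adjusted p under 0.05, dashed lines mark a log2 fold change of 1 in each direction, and the values run from -2.00 for *Itgb8* to 4.63 for *Itgb3*.

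*Itgb3* (ENSMUSG00000020689, chromosome 11 of GRCm38 from 104608000 to 104670476, plus strand) encodes beta 3, which binds vitronectin, fibronectin and fibrinogen with alpha V and is known from angiogenic vessels and platelets. Mutant libraries 1 to 4 had 7716, 6115, 5181 and 11010.1 normalized counts, and wild-type libraries 1 to 4 had 252, 312, 319 and 331. The lowest mutant library thus stood far above the highest wild-type library, and mutant 4 was the highest of the 4. *Itgb3* rose 24.7-fold, a log2 fold change of 4.63 (SE 0.24, adjusted p = 7.27e-07, edgeR). The sample labels carry 3 prefixes of unstated meaning, each shared by mutant and wild-type libraries, and the log2 ratio was 4.61 within the prefix of replicates 1 and 2, 4.02 within that of replicate 3 and 5.06 within that of replicate 4. *Map2k1* was highest in mutant 1, at 18734 normalized counts against 14342 in mutant 4, so the order of the mutant libraries was not the same for both genes. Platelets also carry *Itgb3*, with the alpha subunit *Itga2b*. *Itga2b* had 264 ± 58.0 normalized counts in mutant against 215 ± 8.56 (SD, n = 4 each) in wild-type ECs (adjusted p = 0.161, edgeR). The 7 platelet markers summed to 488 to 756 normalized counts in mutant and 498 to 639 in wild-type libraries, with overlap between the groups. That sum was below the *Itgb3* level in every mutant library and above it in every wild-type library. These counts are not scaled for gene length and the sum spans 7 genes, so its position does not measure what platelets add to *Itgb3*. The part of platelets in the *Itgb3* level was not tested.

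*Itgav* (ENSMUSG00000027087, chromosome 2 from 83724397 to 83806916, plus strand) encodes alpha V, the partner of all 4 beta members. Its normalized counts were 6217, 5889, 5522 and 7465 in mutant libraries 1 to 4 and 1718, 1959.6, 3084 and 3746 in wild-type libraries 1 to 4. The groups did not overlap, and wild type 3 and 4 were the highest wild-type libraries. *Itgav* rose 2.39-fold, a log2 fold change of 1.26 (SE 0.22, adjusted p = 0.00123, edgeR). Within the label prefixes the log2 ratio was 1.72, 0.84 and 0.99. An antisense gene, *Gm13684*, shares 634 bases with the counted *Itgav* exons (5.90% of their length), and with at most 70 counts in any library its reads are few beside those of *Itgav*.

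Because longer transcripts collect more reads, levels were compared between subunits as RPKM, which are TMM-scaled counts divided by library size and by the length of the counted exons. In wild-type ECs *Itgb3* stood at 1.73 ± 0.200 RPKM (SD, n = 4) and *Itgav* at 8.24 ± 2.99 (SD, n = 4), and *Itgb3* was the lower of the pair in each library. In mutant ECs the values were 42.9 ± 14.6 for *Itgb3* and 19.7 ± 2.65 (SD, n = 4 each) for *Itgav*, and *Itgb3* was the higher of the pair in each library. The RPKM ratio of *Itgb3* to *Itgav* was 2.26, 1.89, 1.71 and 2.69 in mutant libraries 1 to 4 and 0.267, 0.290, 0.188 and 0.161 in wild-type libraries 1 to 4. *Itgb5* also exceeded *Itgb3* per length in each wild-type library and was below it in each mutant library. Among the partners of alpha V, the level of beta 3 transcripts relative to both alpha V and beta 5 was therefore of opposite order in the 2 groups. These are transcript levels, and the pairing of the subunits into receptors was not measured.

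**Figure D2:**
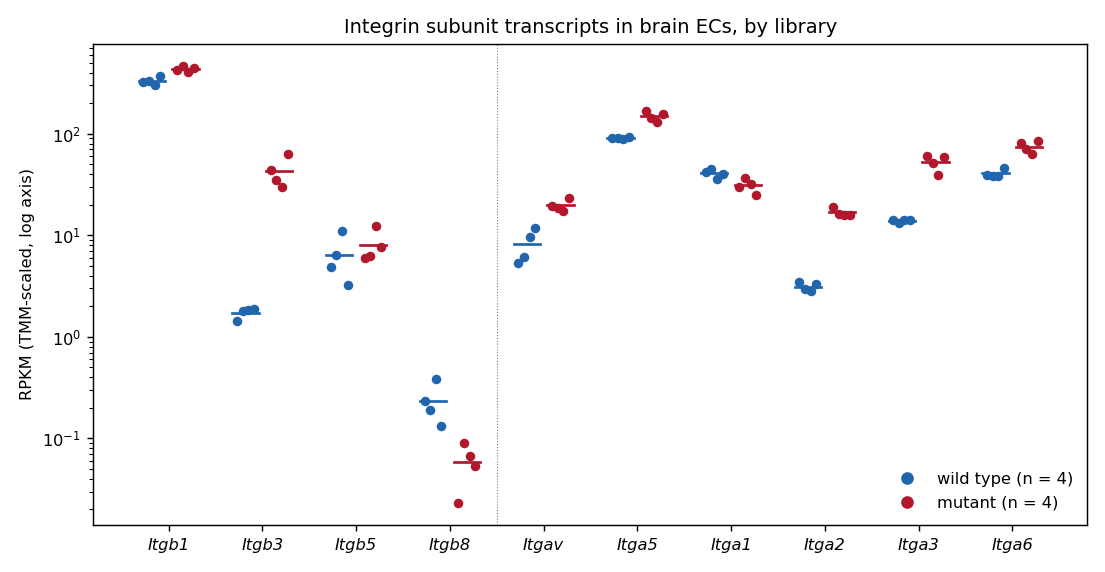
Level of each subunit in each library, as TMM-scaled RPKM on a log axis, with blue points for 4 wild-type and red points for 4 mutant libraries and a line at each group mean. Beta subunits stand left of the dotted line and alpha subunits right of it. *Itgb3* moves from a mean of 1.73 to 42.9 RPKM, and the groups of *Itgb5* and *Itga1* overlap.

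*Itgb5* (ENSMUSG00000022817, chromosome 16 from 33829665 to 33949153, plus strand) encodes beta 5, a vitronectin-binding partner of alpha V. Its normalized counts were 590.04, 625, 1231 and 770.3 in mutant libraries 1 to 4 and 483, 644, 1110.1 and 322 in wild-type libraries 1 to 4. The groups overlapped, with replicate 3 the highest library of each group, and the log2 fold change of 0.33 had a standard error of 0.35 (adjusted p = 0.472, edgeR). Its log2 ratio was 0.11, 0.15 and 1.26 within the label prefixes. Among the 10 subunits it was the one that did not pass the limit on p. *Itgb5* is also expressed by microglia, and the 8 microglia and macrophage markers summed to 4248, 5566, 16191 and 12141 normalized counts in mutant libraries 1 to 4 and to 5686, 7678, 18076 and 4877 in wild-type libraries 1 to 4. Replicate 3 was thus the highest of its group for these markers too, and their part in the *Itgb5* level was not tested. None of the 8 markers had an adjusted p under 0.05 (edgeR), and none had an unadjusted p under 0.05.

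*Itgb8* (ENSMUSG00000025321, chromosome 12 from 119158022 to 119238802, minus strand) encodes beta 8, which with alpha V is known to release active TGF-beta in the brain, where astrocytes and other neural cells carry it. Its normalized counts were 7.60, 29.9, 22.2 and 17.4 in mutant libraries 1 to 4 and 76.4, 63.0, 127 and 43.2 in wild-type libraries 1 to 4. All mutant libraries were below all wild-type libraries, and the log2 fold change was -2.00 (SE 0.42, adjusted p = 0.00316, edgeR). Within the label prefixes the log2 ratio was -1.90, -2.52 and -1.31. *Itgb8* was the rarest member, at 6 to 147 counts per library before scaling and 0.236 ± 0.109 RPKM (SD, n = 4) in wild-type ECs. The summed oligodendrocyte lineage markers were 767, 1648, 798 and 968 normalized counts in mutant libraries 1 to 4 and 7630, 5404, 6865 and 2613 in wild-type libraries 1 to 4. The highest wild-type library was wild type 3 for *Itgb8* and wild type 1 for these markers, while wild type 4 was the lowest for both. Astrocyte markers summed to 527 to 1424 in mutant and 598 to 1261 in wild-type libraries, and 5 of 6 had an adjusted p of 0.05 or more (edgeR). Their median log2 fold change was -0.59, from -0.96 for *Aldh1l1* (adjusted p = 0.0146, edgeR) to 0.24 for *Gfap*, the only 1 of them above 0. Neuron markers summed to 575 to 803 in mutant and 827 to 1512 in wild-type libraries, without overlap, and 3 of 5 were lower by both limits. *Rbfox3* was the only neuron marker above 0, with a log2 fold change of 1.19 (adjusted p = 0.0514, edgeR). The part of other cell types in the *Itgb8* difference was not tested.

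**Figure D3:**
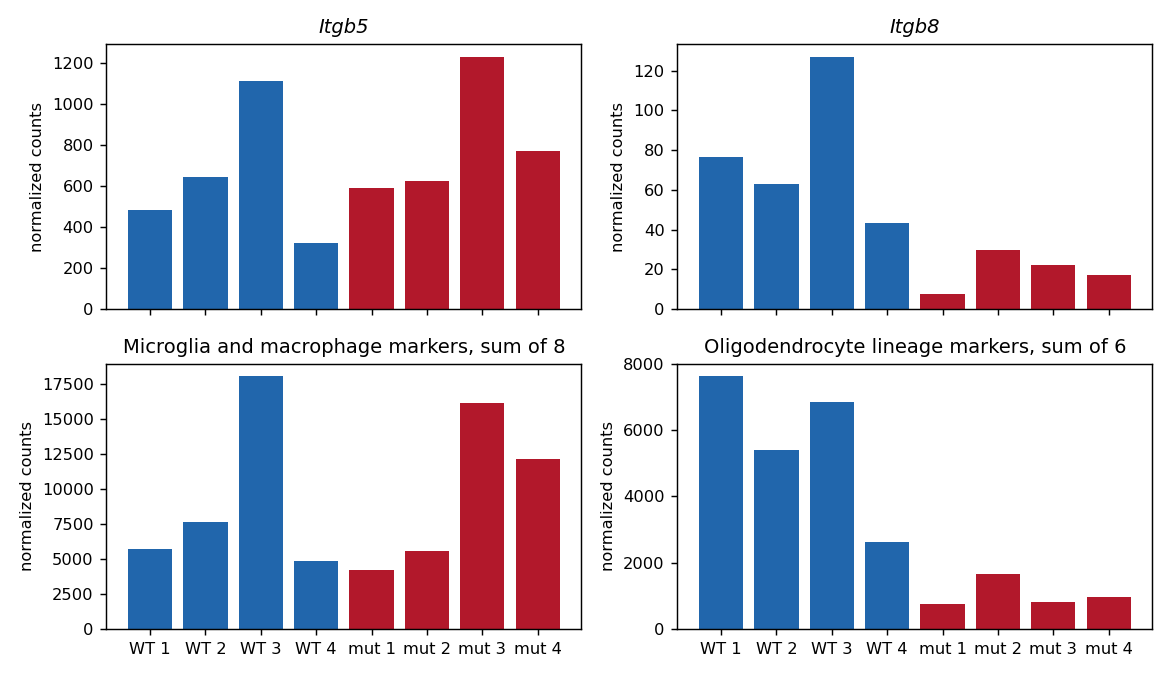
Normalized counts of *Itgb5* and *Itgb8* in each library (top bars) above the summed normalized counts of 8 microglia and macrophage markers and of 6 oligodendrocyte lineage markers (bottom bars), with wild-type (WT) libraries in blue and mutant (mut) libraries in red. *Itgb5* and the microglia markers are both highest in replicate 3 of each group, and *Itgb8* and the oligodendrocyte lineage markers are lower in all 4 mutant libraries.

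*Itgb1* (ENSMUSG00000025809, chromosome 8 from 128685654 to 128733200, plus strand) encodes beta 1 and was the member of highest level per length in both groups. Its normalized counts were 51854, 56412, 48602 and 53351 in mutant libraries 1 to 4 and 39321, 39650.5, 36757 and 44894 in wild-type libraries 1 to 4. The groups did not overlap, and *Itgb1* rose 1.31-fold, a log2 fold change of 0.39 (SE 0.09, adjusted p = 0.00423, edgeR), under the 2-fold limit of the study. Its log2 ratio within the label prefixes was 0.46, 0.40 and 0.25. Of the summed RPKM of the 4 beta subunits, *Itgb1* took 97.5% ± 1.21 in wild-type against 89.5% ± 2.43 (SD, n = 4 each) in mutant ECs. *Itgb3* took 0.511% ± 0.0586 and 8.77% ± 2.62 (SD, n = 4 each), from 6.67% to 12.3% across the mutant libraries. The share of *Itgb5* overlapped between the groups, at 1.94% ± 1.14 in wild-type against 1.69% ± 0.740 (SD, n = 4 each) in mutant ECs. The shares have no test of their own, and the summed beta level was 340 ± 25.3 RPKM (SD, n = 4) in wild-type and 485 ± 31.4 (SD, n = 4) in mutant ECs.

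*Itga5* (ENSMUSG00000000555, chromosome 15 from 103344286 to 103366763, minus strand) encodes alpha 5, which with beta 1 forms the classical fibronectin receptor. Its normalized counts were 22309, 18778, 17079.9 and 20464 in mutant libraries 1 to 4 and 11934, 11931, 11814 and 12281 in wild-type libraries 1 to 4. The wild-type libraries were close to each other, every mutant library was above them, and the 1.64-fold rise gave a log2 fold change of 0.71 (SE 0.09, adjusted p = 1.37e-04, edgeR). *Fn1*, the gene of its ligand fibronectin, had 269061 ± 30464 normalized counts in mutant against 247073 ± 24142 (SD, n = 4 each) in wild-type ECs (adjusted p = 0.384, edgeR).

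The members *Itga3* and *Itga6*, which encode laminin-binding alpha subunits, were higher in mutant ECs. Of the laminin-binding subunits outside the 10, *Itga7* had a log2 fold change of -0.61 (adjusted p = 0.158, edgeR) with overlapping groups. *Itgb4*, the beta 4 partner of alpha 6, was lower in every mutant library, at 553 ± 87.5 normalized counts in mutant against 1026 ± 125 in wild-type ECs (SD, n = 4 each, log2 fold change -0.89, adjusted p = 3.82e-04, edgeR). *Itga3* (ENSMUSG00000001507, chromosome 11 from 95044474 to 95076801, minus strand) encodes alpha 3, a partner of beta 1 in receptors for laminins of basement membranes. It had 10180.1, 8682, 6574 and 9897 normalized counts in mutant libraries 1 to 4 and 2432, 2253, 2365 and 2379 in wild-type libraries 1 to 4. The groups were apart, mutant 3 being the lowest mutant library, and *Itga3* rose 3.75-fold, a log2 fold change of 1.91 (SE 0.13, adjusted p = 4.01e-06, edgeR). Within the label prefixes the log2 ratio was 2.01, 1.47 and 2.06. RefSeq lists a pair of start sites for *Itga3* on GRCm38.p6, and both promoters are shown because it was the one gene past the fold limit whose listed promoters held a motif searched, with matches in capitals.
Itga3 upstream start, minus strand of chr11:95076665-95076964: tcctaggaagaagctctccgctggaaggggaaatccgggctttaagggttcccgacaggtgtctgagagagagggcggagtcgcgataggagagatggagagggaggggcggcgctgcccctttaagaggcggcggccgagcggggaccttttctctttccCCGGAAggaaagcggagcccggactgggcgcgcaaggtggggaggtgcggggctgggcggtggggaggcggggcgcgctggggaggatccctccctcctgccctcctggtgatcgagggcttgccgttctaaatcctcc
Itga3 downstream start, minus strand of chr11:95069149-95069448: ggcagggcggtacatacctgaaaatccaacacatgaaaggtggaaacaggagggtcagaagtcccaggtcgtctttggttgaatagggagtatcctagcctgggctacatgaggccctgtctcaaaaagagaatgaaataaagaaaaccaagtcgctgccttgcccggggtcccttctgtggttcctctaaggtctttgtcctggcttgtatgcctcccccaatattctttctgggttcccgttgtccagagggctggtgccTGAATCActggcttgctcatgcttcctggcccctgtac
The motifs were an AP-1 type, TGANTCA, and an ETS type, CCGGAA, each read on both strands, and the 2 do not overlap. The upstream promoter holds 1 ETS-type match that begins 89 bases before the start, and the downstream promoter holds 1 AP-1-type match that begins 12 bases after it. The AP-1-type search took any base at N, which is A in this match, so it is not shown to be an AP-1 site. Binding was not tested for either match. Of 32851 promoters of 300 bases in the table, 14.9% hold the ETS-type and 7.81% the AP-1-type letters. Promoters were listed for 8 of the 10 members, *Itgb3* and *Itga6* being those without one. Apart from *Itga3*, only *Itgb1* held a match (ETS type, 2 bases after the start), and the *Itga2* and *Itgav* windows held neither set of letters.

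*Itga6* (ENSMUSG00000027111, chromosome 2 from 71745616 to 71858416, plus strand) encodes alpha 6, a laminin receptor subunit typical of brain capillaries. It had 21669, 18964, 16865 and 22510.3 normalized counts in mutant libraries 1 to 4 and 10591, 10356, 10359 and 12298 in wild-type libraries 1 to 4. The groups did not overlap, and the 1.84-fold rise gave a log2 fold change of 0.88 (SE 0.10, adjusted p = 1.20e-04, edgeR), just under the limit of 1. Within the label prefixes the log2 ratio was 0.96, 0.70 and 0.87, and for *Itga5* above it was 0.78, 0.53 and 0.74. Per length, *Itga3* moved from 13.9 ± 0.444 RPKM (SD, n = 4) in wild-type to 52.1 ± 9.68 (SD, n = 4) in mutant ECs and *Itga6* from 40.7 ± 3.5 to 74.7 ± 9.64 (SD, n = 4 each). *Itga6* therefore stayed above *Itga3* in every library, and the gap between them was narrower in mutant ECs as a ratio.

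The members *Itga2* and *Itga1*, whose alpha subunits share a collagen-binding inserted domain and pair with beta 1, changed in opposite directions. The other alpha subunits of this kind had log2 fold changes of -0.02 for *Itga10* (adjusted p = 0.921, edgeR) and 0.65 for *Itga11* (adjusted p = 0.0354, edgeR). *Itga2* (ENSMUSG00000015533, chromosome 13 from 114835916 to 114932041, minus strand) encodes alpha 2 and lies next to *Itga1* on the same strand. It had 2403, 2036, 1958 and 2005 normalized counts in mutant libraries 1 to 4 and 433, 367, 351 and 411 in wild-type libraries 1 to 4. Both groups were tight and far apart, and *Itga2* rose 5.38-fold, a log2 fold change of 2.43 (SE 0.10, adjusted p = 2.21e-07, edgeR). Within the label prefixes the log2 ratio was 2.47, 2.48 and 2.29.

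*Itga1* (ENSMUSG00000042284, chromosome 13 from 114958079 to 115101964, minus strand) encodes alpha 1. It had 5299, 6569, 5739 and 4474 normalized counts in mutant libraries 1 to 4 and 7420.2, 8056, 6385 and 7179 in wild-type libraries 1 to 4. The groups overlapped, since mutant 2 was above wild type 3, and the log2 fold change was -0.40 (SE 0.12, adjusted p = 0.0189, edgeR). The adjusted p rose to 0.0575 without mutant 1, 0.0546 without wild type 1 and 0.0568 without wild type 2 (edgeR), with the direction kept. Its log2 ratio was -0.38, -0.15 and -0.68 within the label prefixes. *Itga1* is also expressed in pericytes and smooth muscle. Pericyte markers summed to 19632 to 30783 normalized counts in mutant and 17671 to 31497 in wild-type libraries, and smooth muscle markers to 2454 to 6149 and 2874 to 6795. The pericyte sum was mostly *Rgs5* (log2 fold change -0.44, adjusted p = 0.137, edgeR). By the limit on p, 2 of 7 pericyte markers were higher and 0 lower, beside 21.5% and 22.9% of all genes. These were *Abcc9* (1.78, adjusted p = 2.36e-04, edgeR) and *Kcnj8* (0.81, adjusted p = 0.0242, edgeR). The part of both cell types in the *Itga1* difference was not tested. *Pelo*, which lies within the bounds of *Itga1* on the same strand, shares 0 exonic bases with it.

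Among the 6 alpha subunits, *Itga1* took 20.7% ± 1.93 (SD, n = 4) of the summed RPKM in wild-type and 9.18% ± 2.07 (SD, n = 4) in mutant ECs. *Itga3* took 7.04% ± 0.345 and 15.1% ± 1.38 (SD, n = 4 each), and *Itga2* took 1.58% ± 0.139 and 4.90% ± 0.367 (SD, n = 4 each). In these 3 subunits the groups did not overlap, while they did for the shares of *Itga5*, *Itga6* and *Itgav*. *Itga5* took 46.0% ± 0.991 in wild-type against 43.4% ± 1.02 (SD, n = 4 each) in mutant ECs, and *Itga6* 20.6% ± 1.02 and 21.7% ± 0.998 (SD, n = 4 each). The counted exons of *Itga6* are longer than its longest coding transcript in GENCODE vM21, at 9025 against 4310 bases. With the longest transcript as length, *Itga6* took 36.7% and *Itga5* 35.5% in mutant ECs, so the order of these genes depends on the gene model. The counted exons of *Itga1* and *Itga2* are shorter than their longest transcripts, and *Itga1* then took 9.70% in wild-type and 4.06% in mutant ECs. The summed alpha level was 198 ± 7.64 RPKM (SD, n = 4) in wild-type and 343 ± 35.8 (SD, n = 4) in mutant ECs.

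**Figure D4:**
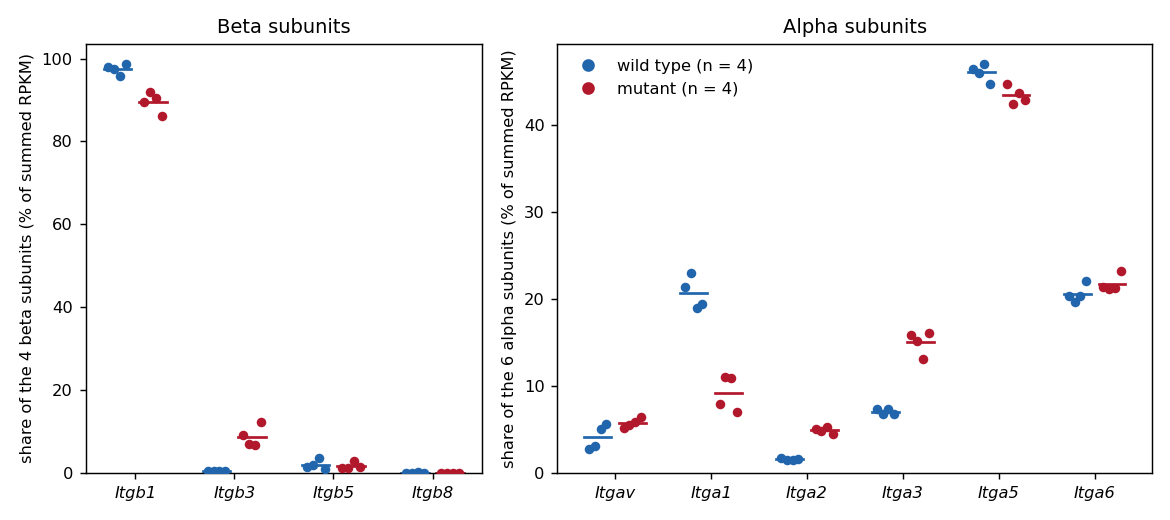
Share of each subunit in the summed RPKM of the 4 beta (left) and the 6 alpha subunits (right), in percent, with 1 point per library and a line at the group mean. *Itgb1* is between 86.2% and 98.6% of the beta sum in all 8 libraries, *Itga1* is lower and *Itga3* and *Itga2* are higher in all 4 mutant libraries.

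Ordered per length, wild-type ECs held *Itgb1*, *Itga5*, *Itga1*, *Itga6*, *Itga3*, *Itgav*, *Itgb5*, *Itga2*, *Itgb3* and *Itgb8*, from 332 RPKM down to 0.236. The libraries of the neighbours *Itga1* and *Itga6*, of *Itgav* and *Itgb5*, and of *Itgb5* and *Itga2* overlapped in level. In mutant ECs the order was *Itgb1*, *Itga5*, *Itga6*, *Itga3*, *Itgb3*, *Itga1*, *Itgav*, *Itga2*, *Itgb5* and *Itgb8*, from 434 RPKM down to 0.0587. Both orders hold for the deposited exon lengths. With the longest transcript as length, mutant *Itga1* (4.06% of the alpha sum) stood below *Itgav* (7.05%) and *Itga6* (36.7%) stood above *Itga5* (35.5%), and wild-type *Itga6* (36.9%) stood well above *Itga1* (9.70%). With the deposited lengths, the libraries of *Itga3* and *Itgb3*, of *Itgb3* and *Itga1*, and of *Itgav* and *Itga2* overlapped. Among alpha subunits relative to their partner *Itgb1*, the RPKM ratio was higher in every mutant library for *Itga2*, *Itga3*, *Itga5* and *Itga6* and lower in every mutant library for *Itga1*. It was 0.0388 ± 0.00439 in mutant against 0.00943 ± 0.000835 (SD, n = 4 each) in wild-type ECs for *Itga2*, and 0.0717 ± 0.0108 and 0.124 ± 0.0127 (SD, n = 4 each) for *Itga1*. *Itgav* was also higher relative to *Itgb1* in every mutant library. The inverse ratio, *Itgb1* to *Itgav*, was 22.3 ± 2.68 in mutant against 44.1 ± 14.9 (SD, n = 4 each) in wild-type ECs.

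Of 17 other integrin subunit genes, 15 passed the filter on low counts, and their median log2 fold change was 0.26. By both limits 2 of these were higher and 2 lower, beside 5.9% and 8.05% of all genes tested. The limit on p alone gave 4 higher and 4 lower, beside 21.5% and 22.9% of all genes. *Itga4*, the most abundant of this list, had 4260 ± 598 normalized counts in mutant against 7244 ± 414 in wild-type ECs (SD, n = 4 each). Its groups did not overlap (log2 fold change -0.77, adjusted p = 1.94e-04, edgeR). *Itgax*, an alpha subunit of myeloid cells, had 214, 206, 249 and 551 normalized counts in mutant libraries 1 to 4 and 9.21, 27.3, 69.2 and 48.5 in wild-type libraries 1 to 4. Each mutant library exceeded the highest wild-type library (log2 fold change 2.98, SE 0.51, adjusted p = 0.00104, edgeR). Its partner *Itgb2* had 509 ± 339 and 345 ± 201 (SD, n = 4 each), with an adjusted p of 0.379 (edgeR), and the part of myeloid cells in the *Itgax* difference was not tested. *Itga8*, an RGD-binding alpha subunit that pairs with beta 1, rose from 87.7 ± 30.0 to 322 ± 68.8 (SD, n = 4 each), a log2 fold change of 1.87. The genes called lower, both under the abundance set for naming and named after their values were seen, were *Itgb2l* (log2 fold change -1.97) and *Itgb7* (-1.33). *Itgad* and *Itgb6* were not tested, at 0 to 12 and 0 to 68 counts per library. *Itgb6* had 5.06, 4.42, 18.8 and 59.2 normalized counts in mutant libraries 1 to 4. It had 0, 2.82, 0.865 and 2.11 in wild-type libraries 1 to 4, so the groups were apart at low counts. Without a filter and with DESeq2, 3 genes of this list were higher by both limits.

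The ligands of these receptors were counted by class. Of 17 glycoprotein ligands, 5 were higher and 1 lower by both limits, beside 5.9% and 8.05% of all genes tested. The median log2 fold change of this list was 0.12. *Tnc*, the matrix glycoprotein tenascin C, rose from 1473 ± 164 normalized counts to 10713 ± 3011 (SD, n = 4 each), a log2 fold change of 2.86 (SE 0.18, adjusted p = 2.94e-06, edgeR). *Thbs1*, thrombospondin 1, and *Spp1*, osteopontin, rose by log2 fold changes of 2.29 and 1.57. *Ccn1*, a secreted matricellular protein, fell from 17596 ± 2599 to 6570 ± 1759 (SD, n = 4 each), a log2 fold change of -1.42. A second lower gene passed both limits without mutant 4, without wild type 4, without a filter and with DESeq2. *Vtn*, vitronectin, had a log2 fold change of -0.06 (SE 0.26, adjusted p = 0.880, edgeR).

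Of 10 collagen ligands, *Col4a1* and *Col6a3* were higher by both limits and none was lower, and 7 were higher and 2 lower by the limit on p alone (edgeR). Over all genes tested, 5.9% were higher and 8.05% lower by both limits, and 21.5% and 22.9% by the limit on p alone. *Col4a1*, of the collagen IV network of basement membranes, had 219976 ± 19593 normalized counts in mutant against 103498 ± 7946 in wild-type ECs (SD, n = 4 each), with a log2 fold change of 1.09, and *Col6a3* had one of 1.02. With both values near 1, the count was 1 with upper quartile scaling, with library size alone, without mutant 3 and without wild type 1. Of 10 laminin genes tested out of 11, 3 were higher and 0 lower by both limits, and 5 were higher and 3 lower by the limit on p alone (edgeR). The shares of all genes given for the collagens apply here too, and 3 lower of 10 is near the 22.9% of all genes. *Lamb1*, a beta chain of laminins of vessels, rose from 15457 ± 484 to 37494 ± 4409 (SD, n = 4 each), a log2 fold change of 1.28 (SE 0.09, adjusted p = 6.35e-06, edgeR). *Lamc3*, a gamma chain, had a log2 fold change of 1.10. *Lama5*, an alpha chain bound by alpha 3 and alpha 6 integrins, had one of -0.82, and *Lama4* one of 0.45.

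Of 33 genes for adaptors and kinases of integrin adhesions, 32 were tested and 12 were higher and 6 lower by the limit on p, beside 21.5% and 22.9% of all genes. The log2 fold changes lay between -1.03 and 0.69. By both limits none was higher and 1 was lower, beside 5.9% and 8.05% of all genes. That gene was *Src*, a kinase of adhesions, with 1636 ± 313 normalized counts in mutant against 3341 ± 248 in wild-type ECs (SD, n = 4 each), with a log2 fold change of -1.03 (SE 0.13, adjusted p = 1.34e-04, edgeR). Its fold passed the limit of 1 no longer without mutant 1, without mutant 4 or without wild type 1. *Tln1*, which encodes talin 1, had the largest positive value, 0.69 (SE 0.09, adjusted p = 1.94e-04, edgeR), and *Ptk2*, which encodes focal adhesion kinase, had 0.04 (adjusted p = 0.713, edgeR).

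**Figure D5:**
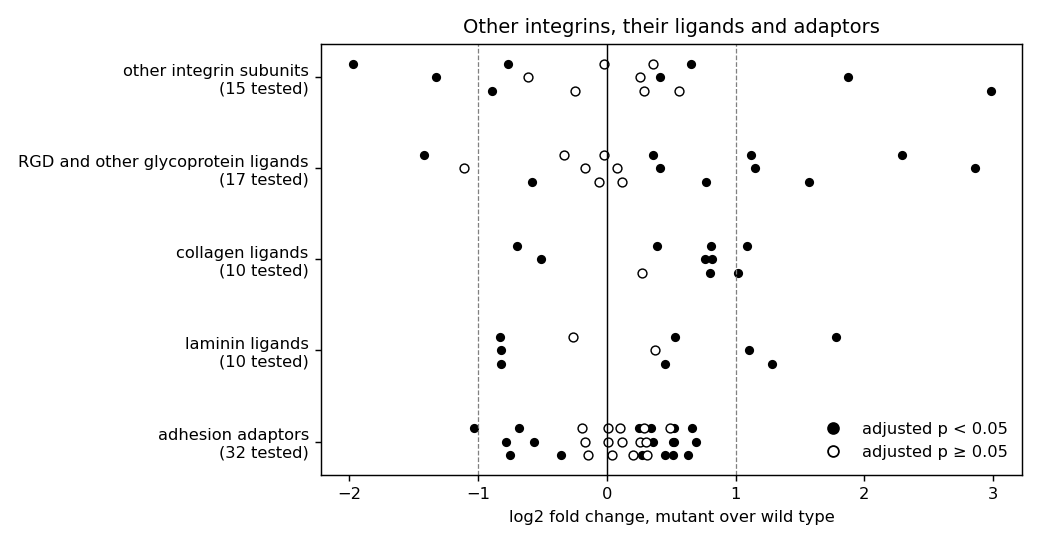
Log2 fold change, mutant over wild type, of every tested gene in 5 lists (rows: 15 other integrin subunits, 17 glycoprotein ligands, 10 collagens, 10 laminins and 32 adhesion adaptors), 1 point per gene with arbitrary vertical spacing. Filled points have an adjusted p under 0.05 and dashed lines mark a log2 fold change of 1 in each direction. Adaptors lie between -1.03 and 0.69, while glycoprotein ligands reach 2.86 and other integrins 2.98.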

How the data were processed

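RNA of 8 brain EC libraries was sequenced by the authors, who used Trimmomatic for trimming and STAR for mapping to GRCm38, and who deposited counts per gene for each library, without normalization. The counting program, annotation release and use of strand are not given in the sources used here. The deposited gene length is the union of the listed exons for all 49315 genes. A second table, in which the authors divided counts by DESeq2 size factors, was not used. Samples were grouped by their titles. Symbols came from a table of Ensembl identifiers (48970 matched), and gene models for sequences and transcript lengths from GENCODE vM21.

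The fit was made with edgeR 4.0.16 and limma 3.58.1 under R 4.3.3: filterByExpr with a minimum count of 10, TMM, glmQLFit and glmQLFTest, with no covariate. Genes were called at an adjusted p under 0.05 (Benjamini-Hochberg) and an absolute log2 fold change over 1. RPKM used TMM-scaled counts and the deposited lengths. No protein sequences were used. The members, lists and tests were chosen with earlier results of these data known. The genes named are the members, *Map2k1*, up to 4 called genes per list of largest absolute change that average 100 or more normalized counts in their higher group, the 5 genes nearest to *Itgb3*, and others chosen after their values were seen. One gene that this rule names is not reported here. Libraries of a group differed by more than sampling noise (chi-square per degree of freedom 7.25 to 41.6 over 12 pairs). On simulated counts for 16887 genes with 200 changed 4-fold, 190 were called, as were 2 unchanged genes. In the data 44.4% of genes passed the limit on p, and members such as *Itgb1* (1.31-fold) changed less. The simulation thus does not give the recovery or the false calls for such changes. Alternatives were DESeq2 1.42.0, other scalings, filters and thresholds, blocks, gene lengths and each library left out. P-values measure the spread between pups.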

Additional observations from a re-analysis of the deposited data

Results flagged for a closer look

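Among 76 values by group (normalized counts and shares) of the genes named, 3 held a library far from the other 3 of its group. The rule flags about 1 value in 20 by chance, so 3 of 76 is no more than chance would give. *Itga6* was at 12298 normalized counts in wild type 4, against 10356 to 10591 in the other wild-type libraries. Its share of the alpha subunits was 23.2% in mutant 4, against 21.1% to 21.4% in the other mutant libraries. *Itgax* was at 551 normalized counts in mutant 4, against 206 to 249 in the other mutant libraries. Each of these groups still lay as described above, and the *Itga6* log2 fold change stayed between 0.84 and 0.96 with each library left out in turn.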

How the results depend on the processing

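No log2 fold change of a member changed sign under 16 alternatives (15 for *Itgb8*, which a filter at a mean of 100 normalized counts removed), and *Itga1* was the one to lose its adjusted p under 0.05, in 3 of them. The log2 fold change lay between 4.41 and 4.78 for *Itgb3*, 2.36 and 2.5 for *Itga2*, 1.84 and 2.03 for *Itga3*, 1.12 and 1.47 for *Itgav*, and -2.28 and -1.65 for *Itgb8*. For *Itgb5* it turned on single libraries, at 0.05 without mutant 3 and 0.74 without wild type 3 (adjusted p = 0.918 and 0.0627, edgeR). The limit on p alone called 3631 genes higher and 3873 lower, with 7 and 2 members. A test against a log2 fold change of 1 called 427 and 309, and a mean of at least 100 normalized counts 591 and 604, both with 0 members lower, the latter because *Itgb8* was not tested, and with 3 and 4 members higher. Without gene length, *Itgb1* took 86.4% and *Itgb3* 12.2% of the beta counts in mutant ECs, and *Itgb3* 0.739% in wild-type ECs. Same-numbered libraries had correlations of 0.02 to 0.29 between their deviations from the group means, and 3 of 8 libraries correlated best with their own number, so the numbers were not taken as pairs. The replicate block gave 1032 higher and 1399 lower genes, and the same counts of 4 higher and 1 lower members as without it. The paper matched wild-type to mutant pups by litter, and whether the label prefixes mark litters is not stated. Mutant and wild-type libraries of one prefix had correlations of 0.02 to 0.29. Those of different prefixes had -0.36 to 0.38, most of them negative. A fit that also held the prefix called 1050 genes higher and 1406 lower by both limits, among them 4 and 1 members. In that fit *Itgb5* had a log2 fold change of 0.39 (adjusted p = 0.116, edgeR). Another scaling moved the median of all genes by less than 0.1. At 6 counts in its lowest library, *Itgb8* is the member that depth limits most.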

Other observations

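The genes whose log2 CPM over the 8 libraries lay nearest to *Itgb3*, each gene centred on its own mean, were *Eda2r*, *Ptpn7*, *Mogat2*, *Sorcs2* and *Upp1*. Their root mean square difference from *Itgb3* was 0.254, 0.278, 0.280, 0.287 and 0.298 on the log2 scale. *Eda2r*, a receptor of the TNF receptor superfamily, had 875, 608, 812 and 1752 normalized counts in mutant libraries 1 to 4 and 28.6, 34.8, 45.0 and 31.6 in wild-type libraries 1 to 4, and like *Itgb3* it was highest in mutant 4. *Ptpn7*, a tyrosine phosphatase that acts on MAP kinases, had 933 ± 164 normalized counts in mutant against 37.7 ± 8.54 in wild-type ECs (SD, n = 4 each), and was highest in mutant 1. *Upp1*, uridine phosphorylase, was the most abundant of the 5, at 3714 ± 929.7 and 160.4 ± 54.9 (SD, n = 4 each). The likeness is mostly the size of the difference between the groups, since the 5 genes were 23.1-fold to 28.8-fold higher in mutant ECs beside 24.7-fold for *Itgb3*. The part of *Itgb3* in the other genes, and the reverse, was not tested.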
